A study of Mus musculus with 49 samples.

Results

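The 10 genes described here encode apolipoproteins, the protein coat of plasma lipoproteins, and Mttp, the transfer protein that loads lipid onto Apob in the endoplasmic reticulum. They were chosen by name, as Apoa1, Apoa2, Apoa4, Apob, Apoc3, Apoe, Apoh, Apof, Apom and Mttp, and each symbol matched 1 row of the 46078 identifiers in the count table. Apoa1, Apoa4, Apob, Apoc3 and Mttp, which enterocytes are known to use for chylomicrons, are called the 5 intestinal members, although hepatocytes make all of them too. Apoa2, Apoe, Apoh, Apof and Apom are called the 5 hepatic members.

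The study asked how adult mouse hepatocytes change when they dedifferentiate in monolayer culture, and how far the resulting cells, termed dediHeps, take on a hepatic or an intestinal state afterwards. RNA was measured by CEL-Seq2, which counts unique molecular identifiers (UMIs) at the 3′ end of transcripts, in 49 libraries of 16 conditions. All cells came from wild-type C57BL/6J mice, the hepatocytes from livers of 10-week-old males. The conditions were hepatocytes freshly isolated from the liver (FH, n = 3), hepatocytes grown as a monolayer with EGF and taken at 3 h, at 1, 2 and 4 days, or at 1 and 2 weeks (n = 3 at each time), hepatocytes given 0.3 µM verteporfin, a Yap inhibitor, or its solvent DMSO for 1 week (n = 2 each), dediHeps kept in monolayer (n = 5 cultures), dediHep aggregates formed in low-attachment wells (n = 3), spherical organoids of dediHeps in Matrigel (dediHep-SOs, n = 3), budding organoids of dediHeps that carried a Cdx2 retrovirus (dediHep-BOs, n = 3), chemically induced liver progenitors made from hepatocytes with Y-27632, A-83-01 and CHIR99021 (CLiPs, n = 3), spherical organoids of fetal intestinal progenitors from E13.5 embryos (FIPC-SOs, n = 3) and budding organoids of crypts from 10-week-old adult small intestine (ISC-BOs, n = 4).

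Several features limit these groups as models. Hepatocytes were separated from other liver cells by centrifugation and not by sorting, the Cdx2 of the dediHep-BOs came from a virus added to an endogenous gene, and the organoids hold several epithelial cell types at once. The labels tie 3 aggregate libraries and 3 dediHep-SO libraries to dediHep cultures of the same code. The study states in general that its experiments were repeated independently, but for the other groups no label ties the libraries to separate animals or cultures, so p-values measure the spread between libraries, part of which may be technical. By the study's methods, spherical organoids form in a medium with Wnt3a and CHIR99021, which are left out for budding, and crypts were kept without them. The medium of each sequenced library is not given in the labels. In bulk RNA, fewer cells of a type and less RNA per cell cannot be told apart.

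Apolipoproteins keep neutral lipid soluble in blood and direct it to receptors and lipases. Hepatocytes secrete very low density lipoproteins and enterocytes secrete chylomicrons, and in both Apob is the structural protein to which Mttp adds lipid during translation. High density lipoproteins form around Apoa1 and Apoa2, whereas Apoc3, Apoe, Apof, Apoh and Apom exchange between particles or act as receptor ligands, inhibitors or carriers.

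In GRCm38 the members lie on several chromosomes. Apoa1 (chr9:46228580-46230466), Apoc3 (chr9:46232933-46235636, minus strand) and Apoa4 (chr9:46240696-46243459) form a cluster, with 2467 bases between Apoa1 and Apoc3 and 5060 bases between Apoc3 and Apoa4. The remaining members are Apob (chr12:7977648-8016835), Mttp (chr3:138089854-138144968, minus strand), Apoa2 (chr1:171225054-171226379), Apoe (chr7:19696109-19699188, minus strand), Apoh (chr11:108343354-108414396), Apof (chr10:128268671-128270153) and Apom (chr17:35128997-35132050, minus strand). All are protein coding in GENCODE M21. Genes on the opposite strand overlap Apoa4 (Gm47528, Gm10680), Mttp (Gm43691, Trmt10a) and Apoh (Prkca). Whether the counting used strand is not given in the sources used here, so reads of these pairs cannot be told apart.

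Apob is shown first as sequence because editing of its mRNA is known to change the protein made from it. A cytidine in a CAA codon of its mRNA can be deaminated by Apobec1, with A1cf as cofactor, which turns the codon into a stop and gives the short form carried by chylomicrons. The site lies in exon 26 of 29, in codon 2179 of 4505, and the edited base is chr12:8008054. The stretch below is chr12:8008024-8008083 of GRCm38 on the plus strand, with the CAA codon in capitals.

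Apob editing site: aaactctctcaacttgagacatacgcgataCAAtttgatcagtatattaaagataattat

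The 3′ counts sum edited and unedited transcripts, and the share of each was not measured. Promoter pieces are shown for an intestinal member that led the changes below, for Apob and for a hepatic member, because HNF4 factors of liver and gut are known regulators of apolipoprotein genes. RefSeq windows of 300 bases around transcript starts (GRCm38.p6) were found for 8 members, not for Apoc3 and Apof. They were searched on both strands for CAAAGTCCA, for its looser form CAAAGNNCA and for the TATA box letters TATAAA. Capitals mark a match to the looser form, which is TGCCCTTTG on the other strand in Apob, and in Apob also the TATA box letters. The pieces are chr9:46240624-46240695, chr12:7977527-7977647 and chr11:108395177-108395292, all on the plus strand. That of Apoh precedes the RefSeq start but lies inside the GENCODE interval of the gene, chr11:108343354-108414396.

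Apoa4 promoter piece: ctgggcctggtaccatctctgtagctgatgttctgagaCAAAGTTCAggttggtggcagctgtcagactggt

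Apob promoter piece: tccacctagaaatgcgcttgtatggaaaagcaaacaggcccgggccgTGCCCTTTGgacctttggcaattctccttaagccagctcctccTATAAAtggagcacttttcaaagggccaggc

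Apoh promoter piece: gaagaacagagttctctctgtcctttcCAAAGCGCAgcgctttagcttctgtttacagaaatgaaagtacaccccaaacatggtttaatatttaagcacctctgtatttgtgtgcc

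The matches began at position -182 of Apoa4, -103 of Apob and -93 of Apoh from the RefSeq start. The looser form was found in 3 of the 11 windows of the members and in 6.36% of all 32851 windows. The strict form was in 0 of the 11 windows and in 0.475% of all windows. TATAAA was in 3 of the 11, those of Apoa2, Apoe and Apob, and in 13.6% of all windows. A match describes these letters only, and its absence says nothing of a factor.

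Levels are given as CPM, the count of a gene relative to all counts of its library, scaled with TMM factors over all 49 libraries. Library totals ran from 861047 to 3872936 counts (median 1976760), so the 3 counts that a count of 0 allows correspond to 0.775 to 3.48 CPM. Intervals and limits of this kind cover counting error only. No gene had more counts in a library than the number of different UMIs that 6 bases can form. Apoa1 reached 4062 counts and Apoe 4072, so their highest levels and the folds against them may be compressed. A gene is called changed here when its FDR is under 0.1 and its absolute log2 fold change over 2 in the quasi-likelihood test of edgeR, fitted over all genes that passed the low-count filter, and "rose" and "fell" are used for called changes. In a fit of 2 groups, a gene with almost no counts in a group passes that filter only through the other group. Its call can then go only that way. Values after ± are standard errors (SE) of log2 fold changes. Overlap between the libraries of groups is given for single members, and its share over all genes was not computed.

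The labelled cell types were checked against marker lists, and the organoids did not match them in every respect. The summed level of 8 hepatocyte markers was 18780 to 22560 CPM in FH, 622 to 3116 CPM in dediHeps, 6927 to 9880 CPM in aggregates and 14.5 to 36.5 CPM in dediHep-SOs, in which Alb, Tat, Cyp2e1 and Asgr1 had no count. Alb also had no count in the dediHep-BOs and FIPC-SOs. The same 8 markers summed to 813 to 1133 CPM in dediHep-BOs and 547 to 1176 CPM in ISC-BOs, beside 1145 to 1255 CPM in hepatocytes at 2 weeks and 153 to 335 CPM in FIPC-SOs. Most of this was Cps1, at 588 to 916 CPM in dediHep-BOs and 445 to 1066 CPM in ISC-BOs, an enzyme that enterocytes also make, and Ttr was at 74.1 to 392 and 29.2 to 106 CPM. The 8 enterocyte markers summed to 1753 to 2278 CPM in dediHep-BOs, 2411 to 3240 CPM in ISC-BOs and 394 to 455 CPM in dediHep-SOs, where Fabp2, Sis and Lct had no count. Cdx2 had no count in FH, in hepatocytes at any time in culture or in CLiPs. It was at 2.19 to 122 CPM in dediHeps, 3.87 to 23.5 CPM in aggregates, 70.3 to 103 CPM in dediHep-SOs, 177 to 356 CPM in dediHep-BOs, 282 to 404 CPM in FIPC-SOs and 308 to 362 CPM in ISC-BOs.

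The plot of levels by library shows that each member had its own order of conditions. Apoa4 and Mttp had their highest mean level in ISC-BOs, Apob, Apoa2 and Apom in FH, and Apoa1, Apoc3, Apoe, Apoh and Apof in hepatocytes at 3 h, each of which overlapped FH. The lowest mean was in dediHep-SOs for all 5 intestinal members except Apob, for which FIPC-SOs at 7.42 CPM lay below dediHep-SOs at 9.54 CPM with overlapping libraries. Of the 15 neighbouring pairs in each order, between 9 (Apof) and 13 (Mttp and Apom) overlapped, so single steps were mostly within the spread of the libraries. For Apoa4 the clear steps were from hepatocytes at 2 days to FH, from FH to FIPC-SOs and from DMSO-treated hepatocytes to hepatocytes at 2 weeks. For Mttp they were from hepatocytes at 1 day to 2 days and from 4 days to DMSO-treated hepatocytes at 1 week. For Apoe they were from FH to hepatocytes at 2 weeks, from hepatocytes at 1 day to 2 days, from dediHeps to dediHep-SOs and from dediHep-SOs to ISC-BOs.

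The first question was when the members changed after plating. The 6 times were fitted together with FH, so all 6 comparisons share the same 3 FH libraries. Libraries of the same number at different times were not paired in this fit. At 3 h, 0 of the 10 members were called by edgeR or by DESeq2, where 6.91% of 12443 genes were, and 2 had an unadjusted p under 0.05. Apoa4, which encodes a chylomicron and HDL protein, was at 78.3, 78.2 and 98.7 CPM in FH and at 399, 180 and 390 CPM at 3 h. Its 3 h libraries all lay above FH, with a log2 difference of 1.93 ± 0.39 (FDR = 0.00308), just under the fold threshold, and it passed at 2.04 without FH replicate 3 and at 2.23 without the 3 h replicate 2. Apob was at 890, 1453 and 1132 CPM in FH and at 615, 496 and 578 CPM at 3 h, with no overlap and a log2 difference of -1.03 ± 0.29 (FDR = 0.0243). The other 8 members overlapped FH at 3 h, with log2 differences from -0.45 (Apom) to 0.33 (Mttp).

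At 1 day, 3 members were called, and they went in both directions. Apoa4 rose to 421, 792 and 473 CPM, above every FH library, by 2.55 ± 0.40 on the log2 scale (FDR = 3.04e-05). It was the 1 member among 10 called higher, against 6.57% of all genes tested. Apof, which encodes the lipid transfer inhibitor protein, was at 964, 1427 and 894 CPM in FH and still at 1078, 1418 and 888 CPM at 3 h. It fell to 58.9, 38.6 and 57.1 CPM at 1 day, a log2 change of -4.58 ± 0.34 (FDR = 5.13e-09). The drop of Apof between 3 h and 1 day was thus without overlap, and no other member changed as much by that time. Apob fell by 2.01 on the log2 scale, to 414, 227 and 327 CPM, which is at the threshold: with all 49 libraries in the fit the change was -1.91, without the low-count filter -1.92, and without FH replicate 2 or 1 day replicate 2 -1.80. Of the 10 members 2 were called lower, against 10.9% of genes, and 8 were lower at an FDR under 0.1 and any fold, against 22.2% of genes.

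At 2 days 4 members were called lower, against 12.1% of genes, and 9 were lower at an FDR under 0.1 and any fold, against 23.1%. All 4 were hepatic members, but the threshold set this division in part. The intestinal member Apoc3 was called too, at -2.19, once counts were corrected for UMI sequences drawn more than once, and at -2.19 without FH replicate 1. Apob was called at -2.07 without 2 day replicate 1. Apoh, a phospholipid-binding plasma glycoprotein also known as beta-2-glycoprotein I, had been at 2070, 2253 and 2978 CPM in FH and was at 513, 193 and 296 CPM (log2 change -3.03 ± 0.34, FDR = 2.93e-07). Apoa2, the second protein of HDL, had been at 2026, 3314 and 3593 CPM and was at 733, 397 and 455 CPM (log2 change -2.66 ± 0.53, FDR = 0.000342). Both groups were separated from FH without overlap. Apof was 5.93 lower on the log2 scale and Apom, the HDL carrier of sphingosine-1-phosphate, fell by 2.21 (FDR = 0.00345). That of Apom was lost with all 49 libraries in the fit (-2.13, FDR = 0.112) and at -1.88 without FH replicate 3. Apoa4 was still above FH at 255, 179 and 150 CPM, by 1.03 ± 0.38 (FDR = 0.0371), below the fold threshold.

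Between 2 and 4 days Apoa4 went from above FH to below it. At 4 days it was at 24.9, 17.0 and 18.7 CPM, below all FH libraries (log2 change -2.21 ± 0.40, FDR = 0.000134). Apoa2 was at 20.0, 6.10 and 16.6 CPM and Apoh at 20.0, 10.0 and 22.5 CPM, changes of -7.84 ± 0.68 and -7.26 ± 0.42. These were the largest folds of any member at that time. Apoc3, an inhibitor of lipoprotein clearance, fell to 163, 102 and 195 CPM from 1756, 3754 and 3032 CPM in FH (-4.35 ± 0.50, FDR = 3.04e-07). Mttp (-2.25), Apob (-2.50), Apof (-5.90) and Apom (-2.98, and -3.92 without 4 day replicate 1) fell too, so that 8 of 10 members were called lower, against 12.4% of genes. Apoa1 (-1.51) and Apoe (-1.83) had FDRs of 0.00138 and 6.52e-05 and did not reach the fold threshold. For Apoe it was reached at 2 and 4 days (-2.02 and -2.55) once counts were corrected for UMI sequences drawn more than once.

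**Figure D1:**
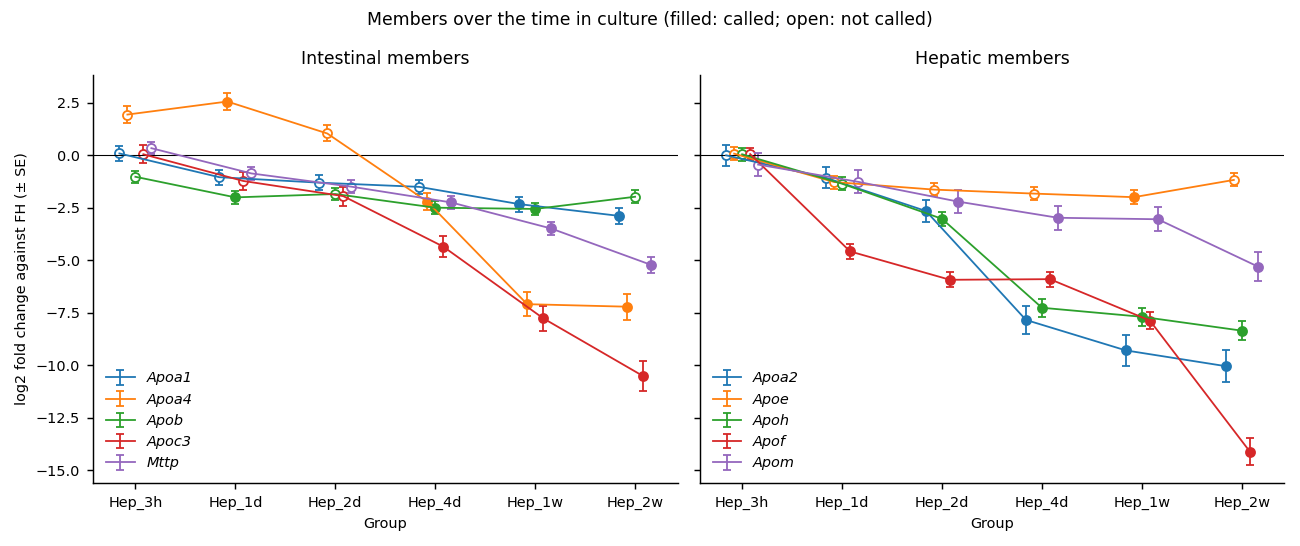
Log2 fold change of each member against FH (± SE, y axis) at the 6 times in culture (x axis), with filled points for called changes and intestinal members at left, hepatic members at right. Apoa4 lies above 0 up to 2 days and at -2.21 by 4 days, and Apoe stays between 0.07 and -2.00 throughout. The value of Apof at 2 weeks rests on 0 counts and depends on the prior count of the fit.

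At 1 week all 10 members were called lower, against 12.8% of genes, with a median log2 change of -5.29 against 0.17 over all genes tested. Apoa4 was down to 1.12, 0 and 0.660 CPM and Apoc3 to 29.9, 4.31 and 10.2 CPM. Apoa2 had the largest change, at -9.29 ± 0.73 (11.6, 0 and 3.96 CPM), and Apoe the smallest, at -2.00 ± 0.32 (1505, 864 and 1098 CPM against 3285, 5096 and 3973 CPM in FH). Replicate 1 of 1 week held the highest levels of several members, and without it the changes were -10.47 for Apoa2, -8.68 for Apoc3 (-7.76 with it) and -4.13 for Apom (-3.05 with it). The call of Apoe was at the threshold: its value was -1.99 with DESeq2 and with RLE factors, -1.93 with all 49 libraries, -1.86 without the low-count filter, and -1.81, -1.85 and -1.89 without FH replicate 2 and without 1 week replicates 2 and 3. Apoa1, the main HDL protein, fell by 2.33, from 2485, 3984 and 3692 CPM to 1280, 403 and 606 CPM. The DMSO-treated hepatocytes were also taken at 1 week. They lay above these libraries for Apoa1 (1408 and 1473 CPM), Apoa4 (4.42 and 7.24 CPM), Apoc3 (60.6 and 71.2 CPM), Apof (22.3 and 27.1 CPM) and Apoh (26.7 and 31.6 CPM). For Apob they lay below (133 and 157 CPM), and for the other members they overlapped. The 2 sets were not tested against each other. Lists of cholangiocyte and endothelial markers also differed between these times. In the study, hepatocyte-derived cells in culture themselves stained for CK19, the protein of the listed marker Krt19. The 6 cholangiocyte markers summed to 17.0 to 103 CPM in FH, 638 to 675 CPM at 3 h, 187 to 474 CPM at 1 and 2 days, 798 to 1139 CPM at 1 week and 1129 to 1364 CPM at 2 weeks, and the 6 endothelial markers to 176 to 304 CPM in FH, 3.63 to 40.3 CPM at 1 week and 4.85 to 9.16 CPM at 2 weeks. Their part in the results was not tested.

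At 2 weeks 8 members were called lower, against 15.3% of genes. Apof had 0 counts in all 3 libraries, at least 1849-fold lower than FH with 3 counts taken over the group, or 899-fold without replicate 1 of 2 weeks. Apoa4 had 3 counts in all, a ratio of 149 with a 95% counting interval of 50.2 to 725. Apoc3 was at 1.13, 1.21 and 5.72 CPM (log2 change -10.51 ± 0.70, and -11.26 without replicate 3) and Apoa2 at 3.76, 1.21 and 4.58 CPM (-10.04 ± 0.77). Mttp was at 7.89, 7.89 and 3.43 CPM (-5.22 ± 0.37), Apom at 13.52, 9.71 and 12.6 CPM (-5.30 ± 0.67) and Apoh at 9.39, 9.71 and 4.58 CPM (-8.35 ± 0.45). Apoa1 was at 445, 325 and 706 CPM (-2.89 ± 0.37). These levels were all below the FH libraries. Apob and Apoe were not called. Apob was at 318, 353 and 301 CPM (-1.98 ± 0.30, FDR = 9.63e-06), and reached the threshold with the UMI correction (-2.00) and without FH replicate 1 (-2.12). Apoe was at 1320, 1526 and 3014 CPM (-1.18 ± 0.31, FDR = 0.0034).

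At 2 weeks the members covered a graded range. Apoe, Apoa1 and Apob had 8664, 2337 and 1690 counts over the 3 libraries, Apom, Apoh and Mttp had 63, 45 and 37, and Apoa2, Apoc3, Apoa4 and Apof had 16, 10, 3 and 0. Apoe is also made by macrophages. A list of 12 macrophage markers summed to 421, 458 and 145 CPM in FH and to 364, 442 and 17.2 CPM at 2 weeks. The library with the highest Apoe had the lowest macrophage sum at 3 h, 4 days and 2 weeks. It had the highest sum in FH, at 2 days and at 1 week, and the middle sum at 1 day. In dediHeps, where Apoe was at 162 to 1290 CPM, the sum was 1.45 to 10.8 CPM with 7 of 12 markers without a count. The part of macrophage RNA in the Apoe level of FH and of hepatocytes in culture was not tested further.

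Other genes of lipoprotein metabolism were followed from lists. Of 13 other apolipoproteins 10 were tested, and 7 of them fell at 1 day and 8 at 1 week, among them Apon (log2 change -5.91 and -8.26) and Saa4, a constitutive HDL protein (-9.43 at 1 week). The median log2 change of the 10 was -4.21 at 1 day and -5.70 at 1 week, against -0.03 and 0.17 over all genes. Of 29 genes of lipoprotein assembly and secretion 27 were tested, of which 8 fell at 1 day and 11 at 1 week. Fabp1, the main fatty acid carrier of the hepatocyte cytosol, fell (-4.15 at 1 day and -14.80 at 1 week), as did Cideb, which promotes lipidation of very low density lipoproteins (-4.20 at 1 day), and the median of the list was -1.10 at 1 day and -1.62 at 1 week. Of 12 genes of HDL formation and remodelling 10 were tested, and 4 fell at 1 day and 6 at 1 week, with Pon1, an HDL-bound esterase, at -12.24 and the hepatic lipase Lipc at -10.72 at 1 week and a median of -4.19. Among 7 lipolysis genes 4 fell at 1 day and 3 at 1 week. Of 10 tested uptake receptors and regulators 1 fell and 1 rose at 1 day, and the one that rose was Lrp8, a receptor for Apoe, by 7.03. Of 18 tested transcription factors known to act on apolipoprotein genes 8 fell at 1 day and 8 at 1 week, led at 1 day by Cebpa (-3.96) and Nr5a2 (-2.96), with a median of -1.39 at 1 day.

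The editing factors of Apob mRNA moved apart, and were chosen for mention after their values were seen. A1cf was at 157 to 288 CPM in FH, 54.9 to 108 CPM at 3 h, 9.15 to 19.2 CPM at 1 day and 0.607 to 5.72 CPM at 2 weeks. Apobec1 was at 4.99 to 40.4 CPM in FH, 25.4 to 28.3 CPM at 1 day and 8.01 to 8.64 CPM at 2 weeks, and these ranges overlap FH. Whether Apob editing changed was not measured by these counts.

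The next comparison asked which members the passaged dediHeps kept. Against FH 9 of 10 members fell, against 12.6% of 11276 genes tested. The 5 cultures lay below all FH libraries for all 10 members, and the share of all genes that did so was not computed. Apof was at 0, 1.53, 0.309, 2.04 and 0.965 CPM in cultures 1 to 5 (log2 change -10.28 ± 0.61, FDR = 5.28e-07). Apoa2 was at 0, 7.63, 0.309, 14.7 and 10.1 CPM (-9.05 ± 1.00, FDR = 3.95e-05). Apoc3 was at 1.10, 16.3, 56.2, 10.6 and 56.4 CPM (-6.88 ± 0.89, FDR = 0.000126), a wide spread in which culture 1 was the lowest.

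Apoa1 was the member best kept in dediHeps. It was at 298, 1060, 1003, 1048 and 1568 CPM, a log2 change of -1.99 ± 0.42 (FDR = 0.00324) that did not reach the fold threshold, and that passed it with the UMI correction (-2.21), without FH replicate 1 (-2.16), and without dediHep replicate 4 (-2.00) or 5 (-2.21). Apob was at 141, 346, 69.7, 130 and 156 CPM (-2.99 ± 0.46) and Apoe at 162, 822, 162, 1290 and 628 CPM (-2.99 ± 0.61). Mttp was at 2.19, 14.2, 20.4, 24.4 and 8.20 CPM (-4.25 ± 0.56, FDR = 0.000133). Apoa4 was at 0.547, 12.2, 49.7, 6.51 and 4.34 CPM (-2.73 ± 0.85, FDR = 0.0261), with culture 3 far above the rest, and the change was -4.05 without that culture. Apoh (3.29 to 152 CPM, -5.64, and -6.40 without culture 5) and Apom (0 to 19.8 CPM, -5.86) also differed widely between cultures. Among the other genes, 8 of 10 tested apolipoproteins, 8 of 25 assembly genes, 7 of 9 HDL genes and 2 of 6 lipolysis genes fell, among them Saa4 (-11.37), Apoa5 (-8.88), Pon1 (-12.26) and Lcat (-6.06), the enzyme that esterifies HDL cholesterol. The medians were -6.46 for the apolipoproteins, -1.33 for assembly, -4.25 for HDL and -1.06 for lipolysis, against 0.08 over all genes. The study traced nearly all cells of its lineage-marked cultures to hepatocytes, and found CK19 together with Alb in dediHeps. The cholangiocyte markers summed to 1022 to 1636 CPM in dediHeps, 295 to 552 CPM in aggregates and 2447 to 3246 CPM in dediHep-SOs, and the endothelial markers to 0 to 0.965 CPM in dediHeps. Their part in the results was not tested.

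Aggregation raised most of the members again. Against dediHeps 7 of 10 rose, against 4.39% of 11265 genes, with a median log2 change of 4.22 against -0.07 over all genes tested. The 3 aggregates came from cultures 1, 2 and 4, so each has its own monolayer beside it. Apof went from 0, 1.53 and 2.04 CPM in these cultures to 167, 239 and 443 CPM (log2 change 8.15 ± 0.59, FDR = 8.18e-05). Apoa2 went from 0, 7.63 and 14.7 CPM to 1755, 1076 and 1635 CPM (7.89 ± 0.91, FDR = 0.000598), and Apoh from 3.29, 54.4 and 69.2 CPM to 2176, 1141 and 1619 CPM (4.91 ± 0.90, FDR = 0.00656, and 5.67 without dediHep culture 5). All 3 were higher in each of the 3 pairs.

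Of the intestinal members 3 rose on aggregation. Apoa4 went from 0.547, 12.2 and 6.51 CPM to 314, 354 and 830 CPM (5.05 ± 0.91, FDR = 0.00608, and 6.42 without dediHep culture 3). Apoc3 went from 1.10, 16.3 and 10.6 CPM to 1135, 594 and 854 CPM (4.97 ± 0.82, FDR = 0.00426). Mttp went from 2.19, 14.2 and 24.4 CPM to 142, 131 and 201 CPM (3.53 ± 0.54, FDR = 0.0027). No aggregate overlapped a dediHep culture for these 3. Apom also rose, by 3.48 ± 1.14 (FDR = 0.0635), but the aggregate of culture 1 was at 10.1 CPM, below 2 of the 5 monolayers, and the call was lost with DESeq2 (FDR = 0.158) and without dediHep replicate 2 (FDR = 0.123) or aggregate replicate 2 (FDR = 0.153) or 3 (FDR = 0.214).

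Apob, Apoe and Apoa1 were not called. Apob went from 141, 346 and 130 CPM to 570, 318 and 191 CPM (1.16 ± 0.49, FDR = 0.126), lower in the aggregate of culture 2 than in its monolayer. Apoe went from 162, 822 and 1290 CPM to 450, 1637 and 2014 CPM (1.20 ± 0.66, FDR = 0.222), higher in all 3 pairs, and the order of the cultures was the same before and after aggregation. Apoa1 went from 298, 1060 and 1048 CPM to 2934, 1765 and 2027 CPM (1.23 ± 0.41, FDR = 0.0676). Its aggregates held 3793 to 4062 counts, near the UMI limit, and it was called with the correction for repeated UMIs (FDR = 0.0172).

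**Figure D2:**
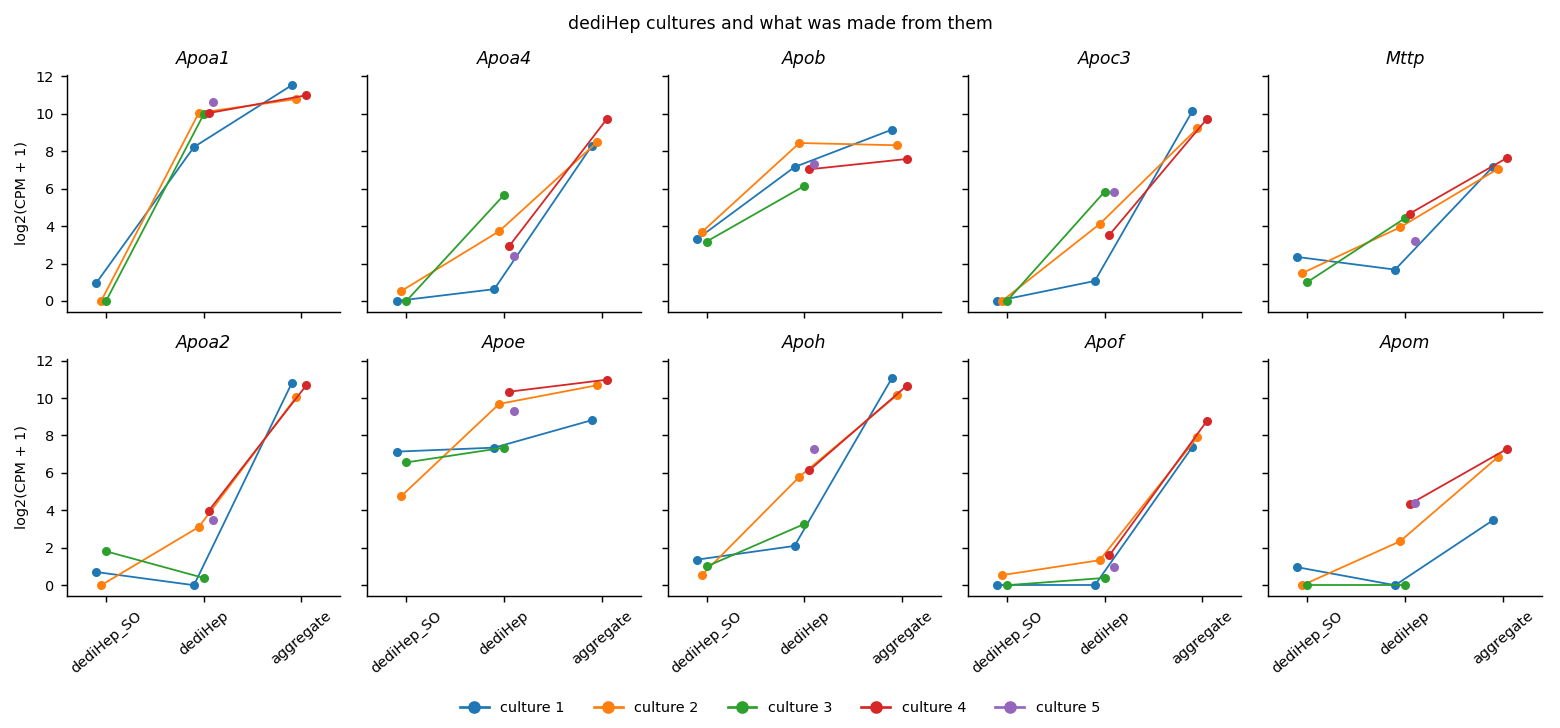
Level of each member, as log2(CPM + 1), in dediHep-SOs, dediHep monolayers and aggregates (x axis), with lines joining libraries of the same culture. Apoa2, Apof, Apoh, Apoa4 and Apoc3 rise steeply from monolayer to aggregate in all 3 cultures, Apoa1 and Apoc3 reach 0 or nearly 0 in dediHep-SOs, and Apoe keeps the order of the cultures between monolayer and aggregate.

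Other genes of the pathway rose with them: 5 of 9 tested apolipoproteins, 7 of 27 assembly genes, 3 of 6 HDL genes, 3 of 6 lipolysis genes and 4 of 19 transcription factors, and 0 of 9 uptake genes. Saa4 rose by 8.91, Apoc4 by 5.00, the fatty acid transporter Cd36 by 6.85 and Lcat by 4.36. Of the transcription factors Nr1h3, the oxysterol receptor LXR alpha, rose by 3.24 and Ppara by 3.75. The medians were 4.18 for the apolipoproteins, 0.97 for assembly, 1.51 for HDL and 2.13 for lipolysis.

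Against FH, which is also the reference of the dediHep and time comparisons, the aggregates still differed in 3 members. Apoa4 was higher (314 to 830 against 78.2 to 98.7 CPM, log2 change 2.38 ± 0.43, FDR = 0.00215), the 1 of 10 called higher against 6.78% of 9544 genes. Without aggregate replicate 3 it was at 1.91. Apof (-2.13 ± 0.42, FDR = 0.0034) and Apom (-2.35 ± 0.73, FDR = 0.035) were called lower, against 9.78% of genes. Each of these calls fell short of the fold threshold with 1 library left out: Apof without FH replicate 2 (-1.91) or aggregate replicate 1 (-1.78) or 2 (-1.93), and Apom without aggregate replicate 1 (-1.74). Apoa1 (-0.74 ± 0.33), Mttp (-0.70 ± 0.36) and Apoh (-0.71 ± 0.34) overlapped FH, with FDRs of 0.121, 0.176 and 0.144. The difference of Apoa1 turned to 0.14 with the UMI correction. Apob (-1.82), Apoc3 (-1.86), Apoa2 (-1.14) and Apoe (-1.76) were lower at FDRs of 0.0109, 0.00439, 0.0272 and 0.0182 without reaching the fold threshold. Without aggregate replicate 1 Apob (-2.27) and Apoc3 (-2.06) reached it, without FH replicate 1 Apoc3 (-2.11) and without aggregate replicate 3 Apoe (-2.04).

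In spherical organoids the members went further down, and the reference here was the same 5 dediHep cultures as for the aggregates. Of the 8 members tested against dediHeps 7 fell, against 4.65% of 11470 genes. Apof and Apom were too low to be tested, at 0 to 0.453 and 0 to 0.945 CPM. Apoa1 had 3 counts in 1 of 3 dediHep-SO libraries (0.945, 0 and 0 CPM) against 298 to 1568 CPM in dediHeps, a ratio of 2490 with a counting interval of 852 to 12070. Without that library, dediHep-SO replicate 1, there was no count, and Apoa1 was at least 1418-fold lower. Apoc3 had 0 counts in all 3, at least 76.3-fold lower, or 43.5-fold without replicate 1. Apoa4 had 1 count, in replicate 3, a ratio of 135 with a counting interval of 23.9 to 5341. Of its 211 counts in dediHeps 161 came from culture 3, and the ratio was 44.3 without that culture, 76.7 without dediHep-SO replicate 1 and at least 31.4 without dediHep-SO replicate 3. Its call was lost without dediHep-SO replicate 1 (FDR = 0.145) or 2 (FDR = 0.128).

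Apob kept a level in dediHep-SOs, at 8.82, 8.03 and 11.8 CPM, while it fell by 4.11 ± 0.56 (FDR = 0.000879). Apoh fell by 5.65 ± 1.28 to 1.58, 1.00 and 0.453 CPM, 8 counts in all, and the change was -4.85 without dediHep culture 5. Apoa2, already low in dediHeps, was at 0.63, 2.51 and 0 CPM (-2.62 ± 1.33, FDR = 0.25). Mttp was at 4.10, 1.00 and 1.81 CPM (-2.47 ± 0.76, FDR = 0.0626, and -3.21 without dediHep-SO replicate 1), and its library from culture 1 lay above the monolayer of that culture, at 2.19 CPM. Apoe was at 140, 93.3 and 26.3 CPM (-2.77 ± 0.78, FDR = 0.0453). The calls of Mttp and Apoe did not hold with culture as a replicate block (-2.11, FDR = 0.302, and -1.75, FDR = 0.326). Mttp was also not called without dediHep-SO replicate 2 (FDR = 0.242) or 3 (FDR = 0.131) or dediHep replicate 2 (FDR = 0.103) or 4 (FDR = 0.102), nor Apoe without dediHep-SO replicate 2 (FDR = 0.16) or 3 (FDR = 0.104). Without dediHep-SO replicate 2 the count of members called was 4. By culture, Apoe went from 162 to 140 CPM in culture 1, from 162 to 93.3 CPM in culture 3 and from 822 to 26.3 CPM in culture 2.

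Fabp1 (-8.83), Apoc2 (-6.65), the activator of lipoprotein lipase, the lipase itself, Lpl (-6.52), Abca1 (-6.45), which exports lipid to Apoa1, and Creb3l3 (-6.04), a transcription factor of the apolipoprotein genes, fell in the same comparison. In all, 1 of 6 tested apolipoproteins, 6 of 24 assembly genes, 2 of 5 HDL genes, 2 of 4 lipolysis genes and 3 of 17 transcription factors fell, and Creb3l3 stands in both the assembly and the transcription factor list.

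The dediHep-SOs were then set beside spherical organoids of fetal intestine, which share their shape. Of 6 members tested 4 were lower in dediHep-SOs, against 3.99% of 11608 genes, and 1 was higher, against 4.92%. The 4 lower members were intestinal. Of these, Apoa1, Apoa4 and Apoc3 had 3, 1 and 0 counts in dediHep-SOs. They passed the low-count filter through FIPC-SOs and could only be called lower, so the tally by kind of member is not read as a result. Mttp was at 1.00 to 4.10 CPM against 54.5, 95.1 and 49.8 CPM in FIPC-SOs (log2 difference -4.74 ± 0.52, FDR = 0.000375, and -5.49 without dediHep-SO replicate 1). Apoa4 was at 46.8, 30.01 and 12.9 CPM in FIPC-SOs, a ratio of 213 with a counting interval of 37.9 to 8450, which was 121 without dediHep-SO replicate 1 and at least 49.8 without replicate 3. Apoa1 was at 43.7, 7.59 and 7.11 CPM there, a ratio of 45.4 (15.3 to 223). Of its 156 counts in FIPC-SOs 113 came from replicate 1, and the ratio was 18.0 without that library and at least 25.9 without dediHep-SO replicate 1. Apoc3 was at 11.98, 7.59 and 4.20 CPM, at least 18.9-fold higher than in dediHep-SOs, or 10.8-fold without dediHep-SO replicate 1.

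Apoe was the member that was higher in dediHep-SOs. It was at 140, 93.3 and 26.3 CPM against 5.03, 2.17 and 5.82 CPM in FIPC-SOs (4.28 ± 0.65, FDR = 0.00196), without overlap. In dediHep-SOs 10 of 12 macrophage markers had no count and the list summed to 9.96 to 22.6 CPM. Apob overlapped between the 2 kinds of organoid (0.36 ± 0.46, FDR = 0.633).

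With the Cdx2 virus, in budding organoids, the intestinal members were higher than in the same 3 dediHep-SO libraries. For Apoa1 and Apob the mean levels, 254 and 76.8 CPM, were still under those of dediHeps, 996 and 168.5 CPM, with overlapping libraries. For Apoa4, Mttp and Apoc3 they were above those of dediHeps. Between dediHep-SOs and dediHep-BOs the virus, organoid shape and, by the study's methods, the withdrawal of Wnt3a and CHIR99021 go together and cannot be told apart. Of 6 tested members 5 rose against dediHep-SOs, against 5.60% of 11301 genes, and these were all 5 intestinal members. Apoa1, Apoa4 and Apoc3 had 3, 1 and 0 counts in dediHep-SOs. They passed the low-count filter through dediHep-BOs and could only be called higher, so the tally by kind of member is not read as a result. Apoa4 was at 1074, 399 and 470 CPM against 1 count in dediHep-SOs, a ratio of 4628 with a counting interval of 830 to 182800, which was 2636 without dediHep-SO replicate 1 and at least 1080 without replicate 3. Mttp was at 248, 194 and 282 CPM (log2 change 6.57 ± 0.45, FDR = 2.23e-05, and 7.36 without dediHep-SO replicate 1). Apoa1 was at 381, 144 and 236 CPM, a ratio of 609 (208 to 2956) that became at least 347 without dediHep-SO replicate 1. Apoc3 was at 154, 68.7 and 98.3 CPM, at least 257-fold higher, or 147-fold without that replicate. Apob rose least, to 98.1, 83.0 and 49.1 CPM (3.00 ± 0.37, FDR = 0.000375).

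Apoe went the other way. It fell to 1.50, 3.46 and 10.4 CPM (-4.05 ± 0.73, FDR = 0.00305, and -5.01 without dediHep-BO replicate 3), the 1 member of 6 called lower, against 5.68% of genes. The hepatic members Apoa2, Apoh, Apof and Apom were too low to be tested and were at 0 to 1.00 CPM in dediHep-BOs, at or under the limit of detection. Beside these changes the macrophage list summed to 399 to 1057 CPM in dediHep-BOs, almost all of it Lyz2 at 396 to 1054 CPM, and 8 of its 12 markers had no count. The 8 stellate and fibroblast markers summed to 4.31 to 291 CPM in dediHep-BOs. In ISC-BOs the macrophage list summed to 153 to 449 CPM. Whether dediHep-BOs held macrophages or fibroblasts, and what part such cells had in the results, was not tested.

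Of the assembly genes 7 of 27 rose, led by Fabp1 (13.41 ± 0.66) and Fabp2 (13.15 ± 0.68), the liver and intestinal fatty acid binding proteins, and 6 of 18 transcription factors rose, led by Creb3l3 (7.99 ± 0.58) and Hnf4g (5.10 ± 0.56), the HNF4 factor of the gut. Among 3 tested other apolipoproteins Apoc2 rose (4.34) and Clu fell (-3.72). The Apob editing cofactor A1cf was at 36.7 to 44.1 CPM against 0 to 1.36 CPM in dediHep-SOs, and Apobec1 at 4.75 to 9.01 against 0.453 to 6.02 CPM, with overlap.

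Against budding organoids of adult intestine, 0 of 6 members tested in dediHep-BOs were called by edgeR or DESeq2, where 3.05% of 11303 genes were, and 1 had an unadjusted p under 0.05. Apoa4 was at 778, 1081, 335 and 538 CPM in ISC-BOs, and the difference was -0.03 ± 0.40 on the log2 scale (FDR = 0.975). Mttp was at 367, 353, 212 and 391 CPM (-0.40 ± 0.24, FDR = 0.337), and Apob at 32.1, 43.6, 55.3 and 76.6 CPM (0.61 ± 0.35, FDR = 0.312). Both organoids overlapped for all 6 members. Apoa1 (-0.74 ± 0.48, FDR = 0.374) and Apoe (-0.74 ± 0.70, FDR = 0.55) had wider errors, and Apoc3 was lower at an FDR of 0.0726 (-1.45 ± 0.42; 361, 457, 116 and 273 CPM in ISC-BOs). A difference that was not called does not show that the organoids are alike. Among the lists of lipoprotein genes and their transcription factors 1 gene was higher, Clu, an apolipoprotein known as a chaperone (4.48 ± 0.73), and 1 was lower, Gata4, a transcription factor of the proximal intestine (-2.45 ± 0.46).

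The step from spherical to budding organoids was then compared between the 2 origins in 1 fit of 4 groups. In the intestinal origin the step also goes from fetal to adult tissue and, by the study's methods, to another medium, which cannot be told apart. The mean levels in FIPC-SOs and ISC-BOs were 29.9 and 683 CPM for Apoa4, 66.5 and 331 CPM for Mttp, 19.5 and 437 CPM for Apoa1, and 7.93 and 302 CPM for Apoc3. For these 4 members the step was larger in organoids from dediHeps, by 7.26 ± 1.12 (Apoa4, FDR = 0.0011), 4.29 ± 0.53 (Mttp, FDR = 0.000221), 4.67 ± 1.35 (Apoa1, FDR = 0.0408) and 5.79 ± 1.50 (Apoc3, FDR = 0.0303) on the log2 scale. That is 4 of 6 members tested, against 5.37% of 12379 genes. The values of Apoa1, Apoa4 and Apoc3 rest on 3, 1 and 0 counts in dediHep-SOs and so depend on the prior count. Apoc3 was not called with all 49 libraries in the fit (FDR = 0.195), nor Apoa1 without dediHep-SO replicate 2 (FDR = 0.115). Without dediHep-SO replicate 1 the values were 6.63 for Apoa4, 5.05 for Mttp and 7.77 for Apoa1, without dediHep-SO replicate 3 that of Apoa4 was 9.12, and without FIPC-SO replicate 1 that of Apoa1 was 3.27. For Apoe the step differed in the opposite sense, by -5.04 ± 1.05 (FDR = 0.00844), the 1 of 6 against 4.08% of genes, as FIPC-SOs and ISC-BOs were both low, at 4.34 and 8.78 CPM. That of Apoe was -4.15 without ISC-BO replicate 2 and -6.02 without dediHep-BO replicate 3. For Apob the difference was 0.22 ± 0.58 (FDR = 0.82).

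Adult intestinal organoids and fresh hepatocytes mark the ends of the hepatic and intestinal scale, again with the same FH libraries. Of 10 members 8 were lower in ISC-BOs, against 13.3% of 11287 genes, and Apoa4 was higher (2.82 ± 0.41, FDR = 0.000124), against 14.8%. All 5 hepatic members were among the lower ones. Apom had 0 counts in the 4 ISC-BO libraries, at least 1243-fold lower, and Apof 1 count, a ratio of 9237 with a counting interval of 1657 to 365000, or at least 2297 without ISC-BO replicate 4, which held it. Apoh was at 1.12, 1.27, 2.18 and 0.912 CPM (-10.87 ± 0.39), Apoa2 at 4.50, 9.30, 0.435 and 0.912 CPM (-9.77 ± 0.72) and Apoe at 5.06, 20.7, 4.79 and 4.56 CPM (-9.03 ± 0.58). ISC-BO replicate 2 was the highest for Apoa2 and Apoe, and without it the differences were -10.75 and -9.87. The intestinal members Apoa1 (-3.14 ± 0.45), Apoc3 (-3.42 ± 0.42) and Apob (-4.65 ± 0.37) were lower by less. Mttp was the member that overlapped between liver and gut (0.35 ± 0.32, FDR = 0.389), at 188 to 282 CPM in FH and 212 to 391 CPM in ISC-BOs.

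In the same comparison 5 of 28 assembly genes were higher, against 14.8% of all genes, and 8 were lower in ISC-BOs, against 13.3%. Among the higher ones were Prap1 (13.03) and Mogat2 (7.36), the monoacylglycerol acyltransferase of the enterocyte, and among the lower ones Cideb (-2.60) and Dgat2 (-3.04). Of 10 other apolipoproteins 9 were lower, among them Apon (-12.11), with a median of -10.37 against 0.08 over all genes.

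**Figure D3:**
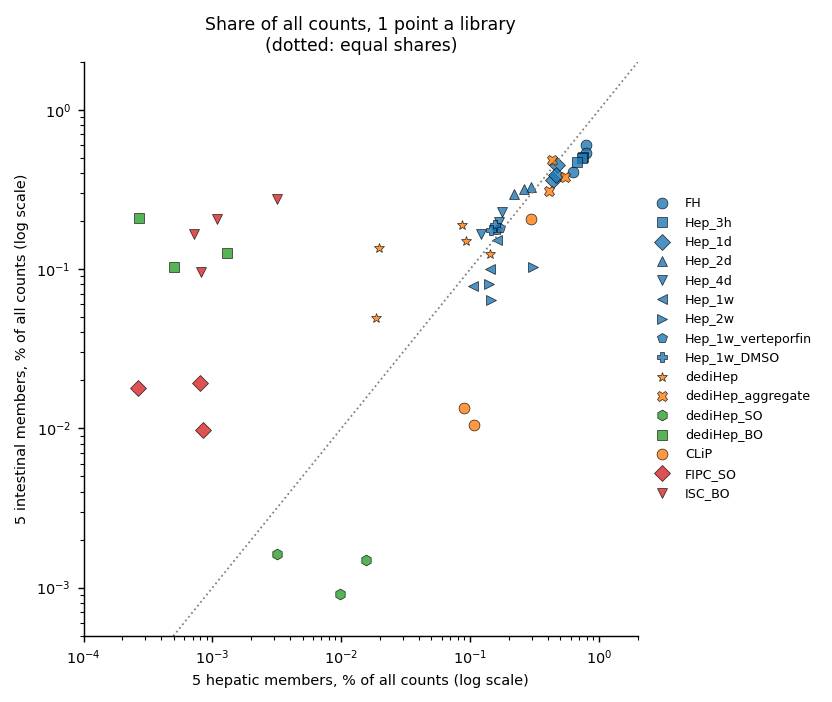
Share of all counts of a library in the 5 hepatic members (x axis, %, log scale) and in the 5 intestinal members (y axis, %, log scale), 1 point a library, with the dotted line at equal shares. FH, hepatocytes in culture and aggregates lie near the line, ISC-BOs and dediHep-BOs lie far above it, and dediHep-SOs lie below it at the lowest intestinal shares.

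The plot of shares sets both groups of members side by side. As 3′ counts give 1 count a molecule, shares of counts need no correction for length. The median share of the 5 intestinal members was 0.536% of counts in FH, 0.0805% in hepatocytes at 2 weeks, 0.136% in dediHeps, 0.378% in aggregates, 0.0015% in dediHep-SOs, 0.018% in FIPC-SOs, 0.126% in dediHep-BOs and 0.186% in ISC-BOs. That of the 5 hepatic members was 0.792% in FH, 0.145% at 2 weeks, 0.0858% in dediHeps, 0.433% in aggregates, 0.00976% in dediHep-SOs, 0.000797% in FIPC-SOs, 0.000502% in dediHep-BOs and 0.000946% in ISC-BOs. All 3 dediHep-SOs had more counts of hepatic than of intestinal members, mostly Apoe, and the other organoids had the reverse in every library. These sums follow their most abundant members, and Apoa1 and Apoe carry the compression named above.

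CLiPs, which reach a proliferating state from hepatocytes by another route, were compared with dediHeps and FH. Replicate 3 had the highest level of every member: Apoa1 was at 41.5, 52.3 and 1889 CPM, Apoa2 at 2.05, 0.894 and 329 CPM, Apom at 2.56, 2.91 and 255 CPM and Apoa4 at 0, 0 and 39.0 CPM. The 8 hepatocyte markers summed to 1870, 2010 and 6984 CPM in the same 3 libraries, and their part in the spread of the members was not tested. Against dediHeps 0 of 9 members were called by edgeR, where 3.04% of 11567 genes were. DESeq2 called 1, Apof, which the low-count filter of edgeR left out, and 2 had an unadjusted p under 0.05. Without CLiP replicate 3 Apoa1 (-4.44, FDR = 0.0143) and Apoc3 (-9.19, FDR = 0.0964) were called lower than in dediHeps. That value of Apoc3 rests on 0 counts in CLiPs and depends on the prior count. With all 49 libraries in the fit 4 were called, which were Apof, Apoa2 (3.99), Apoh (2.41) and Apom (3.24).

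Against FH 6 of 10 members were lower in CLiPs, against 11.4% of 10445 genes, and 10 of 10 without CLiP replicate 3, when Apoa1 (-6.32), Apoa4 (-10.39) and Apom (-7.38) were called too. Without that library Apoc3 was at -15.44, Apoa2 at -11.20, Apof at -9.60, Mttp at -6.58, Apoh at -4.92 and Apob at -4.41. In the remaining CLiP libraries Apoc3 and Apoa4 had 0 counts, so their values depend on the prior count. Apoc3 was at 0, 0 and 68.3 CPM (-7.11 ± 2.06, FDR = 0.0299) and Apof at 0, 2.46 and 57.1 CPM (-5.93 ± 1.55, FDR = 0.0195). Mttp was at 1.54, 3.35 and 42.0 CPM (-4.02 ± 1.06, FDR = 0.0201), and Apob at 60.5, 59.9 and 330 CPM (-3.07 ± 0.75, FDR = 0.0145). Without CLiP replicate 1 the values were -6.44 for Apoc3, -5.28 for Apof, -4.22 for Apoa2 and -3.43 for Mttp, and without CLiP replicate 2 those of Apoc3, Apof and Apoa2 were -6.45, -5.34 and -4.24. Without CLiP replicate 1 the count was 4, since Apoh (-3.04, FDR = 0.0316) was then not called (FDR = 0.104), and Apoa2 (-4.88, FDR = 0.0752) lost its call without CLiP replicate 1 (FDR = 0.133) or without FH replicates 1, 2 or 3 (FDR = 0.104, 0.157 and 0.128). Apoe, at 973, 677 and 1952 CPM, was the least changed (-1.89 ± 0.55, FDR = 0.0312), beside a macrophage sum of 71.1 to 149 CPM. Apoe reached the fold threshold with RLE factors (-2.00), without FH replicate 1 (-2.02) and without CLiP replicate 3 (-2.47).

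Verteporfin at 0.3 µM did not give a call for any of the 9 members tested, by edgeR or DESeq2, where 0.269% of 10400 genes were called, and 1 member had an unadjusted p under 0.05. That member was Apob, at 66.8 and 72.2 CPM with verteporfin and 157 and 133 CPM with DMSO. Both treated libraries lay below both controls, with a log2 difference of -1.07 ± 0.26 (FDR = 0.214). Apoc3 was at 82.8 and 120 CPM with verteporfin and 60.6 and 71.2 CPM with DMSO (0.61 ± 0.29, not called), and Apoa1 and Apoe differed by 0.04 ± 0.19 and 0.20 ± 0.19. Of the transcription factors Creb3l3 was called higher with verteporfin (3.20 ± 0.33, FDR = 0.00713). This call was lost with all 49 libraries in 1 fit, where 0 of 14710 genes were called. Each group held 2 libraries.

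Over the 16 mean levels some members had like patterns and others did not, which is given as a description of points that share libraries. Pearson's r of mean log2 CPM was 0.926 between Apoa4 and Mttp, 0.512 between Mttp and Apoa1, 0.169 between Apoa4 and Apom, -0.184 between Apoa4 and Apoe and -0.129 between Apoe and Mttp. High and low values occurred within and between the intestinal and hepatic members: it was 0.871 between Apoa1 and Apob, 0.866 between Apoc3 and Mttp, 0.277 between Apob and Apoa4 and 0.352 between Apob and Mttp, 0.935 between Apoa2 and Apoh, and across the 2 groups 0.839 between Apob and Apom, 0.809 between Apoc3 and Apoa2 and 0.783 between Apob and Apoh. Among 12758 other genes the patterns nearest to Mttp were those of Otc (r = 0.949) and Ces2d-ps (0.941), and those nearest to Apoa4 were Tkfc (0.937) and Ces2c (0.928). Nearest to Apoc3 were H2-Q10 (0.940) and Hint3 (0.919), to Apob Fcgrt (0.907) and Aldh2 (0.905), and to Apoa1 Tpmt (0.908) and Plpp3 (0.907). The hepatic members had closer neighbours: Serpinc1 (0.990) and Asgr1 (0.988) for Apoa2, Vtn (0.987) and Il6ra (0.986) for Apoh, Kng1 (0.977) and F2 (0.974) for Apom, Gc (0.975) and Rora (0.968) for Apoe, and Gltpd2 (0.969) and Hao1 (0.968) for Apof.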

How the data were processed

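RNA of 49 libraries was measured by CEL-Seq2. The authors deposited 1 table of UMI counts per Ensembl gene, made with the celseq2 pipeline and not normalized, and per the submitters' processing notes bcl2fastq 2.20, Bowtie2 2.3.1, HTSeq 0.6.0 and GRCm38 were used. The UMI length and the strand setting are not given in the sources used here. Of 46078 identifiers 45143 matched a symbol in GENCODE M21, and 0 columns were left unused. Columns were assigned to groups by the labels.

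Counts were tested with the quasi-likelihood F-test of edgeR 4.0.16 in R 4.3.3, with TMM factors, filterByExpr and Benjamini-Hochberg adjustment over all genes tested. The thresholds, FDR under 0.1 and log2 fold change over 2, are those of the study. The 6 times and FH were in 1 fit, the 4 organoid groups in 1 fit for the interaction, and other comparisons in fits of their 2 groups. The code was tested on simulated data with known changes. Ratios with 1 to 3 counts have a 95% exact interval, and ratios with 0 counts use 3 counts over the group. Tables were made with Python 3.11.15, pandas 2.3.3 and scipy 1.17.1, and figures with matplotlib 3.10.9.

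Text names all 10 members, up to 2 called genes per list, comparison and direction (those with the lowest p), and for each member the 2 genes with the most similar pattern (genes of at least 10 CPM in at least 1 condition). Members and lists were chosen with earlier results of these data known, and lists were written from general knowledge. Alternatives were RLE factors, DESeq2 1.42.0, no low-count filter, all 49 libraries in 1 fit, a correction for repeated UMIs of 6 bases, 2 other thresholds, a replicate block and leaving out each library. Over 54 pairs of replicates the chi-square per degree of freedom was 5.62 to 68.0, so no library looked copied. Pairing comes from the culture codes in the labels: deviations of aggregates and dediHeps of the same culture correlated at r = 0.172 to 0.323, and those of dediHep-SOs and dediHeps at -0.435 to 0.02. Values of 1 gene that the rule for named genes selects are not reported here.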

Additional observations from a re-analysis of the deposited data

Results flagged for a closer look

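Of 19 groups of members in conditions with 4 or 5 libraries, 3 held 1 library far from the others. The rule flags about 1 in 20 groups of normally distributed values. Levels near 0 are not distributed so, and the 3 of 19 cannot be set against that rate. Apoa4 was at 49.68 CPM in dediHep culture 3, against 0.547 to 12.2 CPM in the other 4 cultures. Apoe was at 20.72 CPM in ISC-BO replicate 2, against 4.56 to 5.06 CPM in the other 3. Apof was at 0.4558 CPM in ISC-BO replicate 4, which is 1 count, and had no count in the other 3, a pattern that the rule always flags.

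The change from spherical to budding organoids differed between the dediHep and the intestinal origin, by the interaction term of edgeR, for 5 members. It was larger in dediHep-derived organoids for Apoa1 (4.67 on the log2 scale), Apoa4 (7.26), Apoc3 (5.79) and Mttp (4.29), and it was more negative for Apoe (-5.04). What these differences rest on was not tested beyond the values given with the comparison.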

How the results depend on the processing

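Over the 160 log2 fold changes of members tested, 952 values under alternative fits gave 913 in the same direction and on the same side of the threshold, 11 that lost the call, 22 that gained it and 6 in the other direction, none of them a called value. Under an FDR under 0.05 with a log2 fold over 1, and under an FDR under 0.1 at any fold, the members called were 2 and 2 at 3 h (0 as reported), 7 and 9 at 1 day (3), 10 and 10 at 2 days (4), and 7 and 7 in aggregates against FH (3). At any fold, 8 members and 22.2% of genes were lower at 1 day, and 9 members and 23.1% of genes at 2 days. For the other counts the share over all genes was not computed, so they are not read as results about the members. For dediHep-BOs against ISC-BOs the count went from 0 to 1 without the low-count filter and at any fold, and for CLiPs against dediHeps from 0 to 1 with DESeq2 or without the filter and to 4 with all 49 libraries. The 6 values that turned were Apoa2 at 3 h (0.03 with DESeq2, 0.04 with RLE, 0.02 with all 49 libraries), Apoa1 with the UMI correction in aggregates against FH (0.14) and CLiPs against dediHeps (0.20), and Mttp in CLiPs against dediHeps with a replicate block (-0.51). With culture as a replicate block, aggregates against dediHeps kept all calls of members (Apoa4 6.49, Apof 7.91), and Mttp and Apoe lost theirs in dediHep-SOs. In other comparisons samples share only a number. The numbers in the column labels are the same for FH and for 1 day to 2 weeks, and differ at 3 h. Whether a shared number marks 1 preparation is not given. A replicate block on the number in the titles added calls of Apoa1 in dediHeps (-2.47) and of Apoa1, Apoa4 and Apom in CLiPs against FH. With each library left out in turn, the members called ranged from 0 to 1 at 3 h, 4 to 7 in dediHep-SOs against dediHeps, 0 to 2 in CLiPs against dediHeps and 4 to 10 in CLiPs against FH. Fold changes that turned with a library left out, none of them called, were at 3 h Apoa1 -0.09 to 0.22, Apoc3 -0.21 to 0.29, Apoa2 -0.21 to 0.14, Apoe -0.06 to 0.26, Apoh -0.06 to 0.20, Apof -0.14 to 0.29, in dediHep-BOs against ISC-BOs Apoa4 -0.59 to 0.30, Apoe -1.74 to 0.16, in CLiPs against dediHeps Apoa4 -8.28 to 1.07, Apob -1.52 to 0.22, Apoc3 -9.19 to 0.24, Mttp -2.47 to 0.64, Apoa2 -2.22 to 4.63, Apom -1.65 to 3.88, with verteporfin Apoa1 -0.03 to 0.09, Apoa4 -0.35 to 0.46, Mttp -0.39 to 0.45, Apoh -0.17 to 0.12, and in the interaction Apob -0.26 to 0.49. Depth limits members with few counts, the UMI number compresses the highest levels, and 8 adjusted p-values of DESeq2 were not given by the tool.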
